A study of Mus musculus with 12 samples.

Results

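Primary hepatocyte cultures contain nuclei that are not hepatocytes, and the nuclei described here are endothelial by their markers. They are the nuclei that carried a Primary Hepatocytes hashtag, that the authors annotated as cultured cells and that fell in the authors' Seurat cluster 12. This choice took 1733 nuclei of the 53467 nuclei kept in the data, and of the 18394 nuclei from the cultures. Only 26 nuclei of Cell Suspension and 2 nuclei of Liver shared the cluster. The same cultures gave 14760 nuclei of cultured hepatocytes (clusters 0, 1, 14 and 17) and 175 nuclei of cultured stellate cells (cluster 27), against which the identity of cluster 12 is described.

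Single-nucleus RNA sequencing was done on 3 sample types from each of 8 mice. Liver was a piece cut from the organ after its blood was rinsed out with buffered saline and before collagenase, Cell Suspension was the collagenase-digested cells right after isolation, and Primary Hepatocytes were the same isolations after 24 hours on collagen. The labels give all samples as wild type (WT) of strain C57BL6J, whereas the study's methods name male C57BL/6NTac mice on chow, so the substrain is left as the sources give it. All 24 samples carried their own hashtag antibody and were mixed into 6 pools, so that cluster 12 could be counted in each mouse. No gene was altered and no drug was compared. All cultures were plated in medium with serum and then kept in medium with dexamethasone and insulin, and the cells were taken off the plates with trypsin, so culture, attachment, medium and harvest cannot be told apart. The isolation used low-speed spins that enrich hepatocytes, and endothelial cells were neither sorted nor cultured on their own.

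Liver sinusoidal endothelial cells line the liver's capillaries with an open, fenestrated wall and clear waste from blood through scavenger and Fc receptors such as Stab2, Mrc1 and Fcgr2b. Their identity depends on the transcription factor Gata4, and those near the central vein secrete Wnt2, Wnt9b and Rspo3, which maintain the pericentral hepatocyte program. Outside the liver these cells are known to lose fenestrae and sinusoidal markers and to approach a continuous capillary endothelium.

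Cluster 12 was recognised by 7 genes, of which Adgrf5 and Cyyr1 separated it most clearly from both other cultured classes. Adgrf5, an adhesion G protein-coupled receptor of endothelium, lies at chromosome 17, 43360451 to 43459557, plus strand (GRCm38). Cyyr1, a small membrane protein of unknown role, lies at chromosome 16, 85421533 to 85553397, minus strand. The 250 bases upstream of RefSeq transcript starts are shown for these genes, which carry the identity of the cluster, with the ETS core GGAA (or TTCC, its reverse complement) in capitals. Endothelial cells depend on ETS factors such as Erg and Fli1. The sequences come from RefSeq on GRCm38.p6 and run 5′ to 3′ along the gene. The window of the first Adgrf5 start is chr17:43360181-43360430 on the plus strand, that of the second chr17:43389216-43389465 on the plus strand, and that of Cyyr1 chr16:85550374-85550623 on the minus strand. The second Adgrf5 start and the Cyyr1 start lie inside the gene spans given here.
Adgrf5 first start: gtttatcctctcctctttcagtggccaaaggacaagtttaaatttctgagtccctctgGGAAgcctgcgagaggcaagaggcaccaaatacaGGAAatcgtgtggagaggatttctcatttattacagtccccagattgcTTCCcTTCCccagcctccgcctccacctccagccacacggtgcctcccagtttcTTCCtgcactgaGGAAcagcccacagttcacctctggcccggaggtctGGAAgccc
Adgrf5 second start: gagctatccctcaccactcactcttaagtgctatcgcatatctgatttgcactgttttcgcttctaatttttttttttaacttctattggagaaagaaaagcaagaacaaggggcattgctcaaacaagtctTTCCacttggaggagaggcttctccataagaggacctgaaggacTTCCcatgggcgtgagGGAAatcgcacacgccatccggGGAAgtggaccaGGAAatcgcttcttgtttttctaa
Cyyr1: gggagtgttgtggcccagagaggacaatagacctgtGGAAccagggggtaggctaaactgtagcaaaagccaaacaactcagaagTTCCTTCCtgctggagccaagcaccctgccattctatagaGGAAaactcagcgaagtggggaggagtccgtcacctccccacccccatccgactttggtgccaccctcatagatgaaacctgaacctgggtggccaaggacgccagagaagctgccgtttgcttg
The Adgrf5 windows held 7 and 5 GGAA cores over both strands and the Cyyr1 window held 4. Of 32851 promoter windows of the same length, 3.82% held at least 7, 18% held at least 5 and 33.4% held at least 4, with a median of 3. Plekhg1, Prickle2 and Adamts9 also had RefSeq windows, with 1 to 3 cores each, and Arhgap31 and Itgb3 had none in the table. The AP-1 motif TGANTCA did not occur in any of these windows, and 6.75% of all windows held it. These matches are counts of letters, chosen after the markers were known, and do not show binding.

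The share of cluster 12 differed widely between cultures. It made up 0.535% of nuclei in the lowest sample, 9.54% at the median and 19.1% in the highest (mean 9.05% ± 6.72, SD, n = 8 mice). The highest culture was that of mouse 5, with 510 nuclei, followed by mouse 6 with 373. The lowest was that of mouse 7, where 12 nuclei gave 0.535% (95% Wilson interval 0.307% to 0.934%, which covers counting error only). Mice 2 and 4 were also low, at 2.09% and 3.66%, whereas mice 1, 3 and 8 gave 7.47%, 12% and 11.6%. The levels ran with the pools in part, since pool 3 held the cultures of mice 1, 5 and 6, pool 5 those of mice 3 and 8, pool 4 the low pair of mice 2 and 7, and pool 2 that of mouse 4 alone. Pools and mice cannot be told apart here, and pools of 1 to 3 cultures are too small for correlations of their own. Endothelial nuclei, as the authors annotated them, made up 12.8% ± 5.22 of Liver nuclei and 8.14% ± 4.08 of Cell Suspension nuclei of the same mice (SD, n = 8). The share in a culture did not follow the endothelial share of the suspension it came from (Pearson's r = -0.181, exact permutation p = 0.661, adjusted p = 0.989 over 2 correlations, Spearman's coefficient = -0.262, exact p = 0.536). Without mice 3 and 4, the farthest from the median of the suspension share, r was -0.512. Against the endothelial share of Liver, r was 0.00577 (exact p = 0.989) and Spearman's coefficient 0.0238 (exact p = 0.977), and r was 0.146 without mice 3 and 6.

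**Figure D1:**
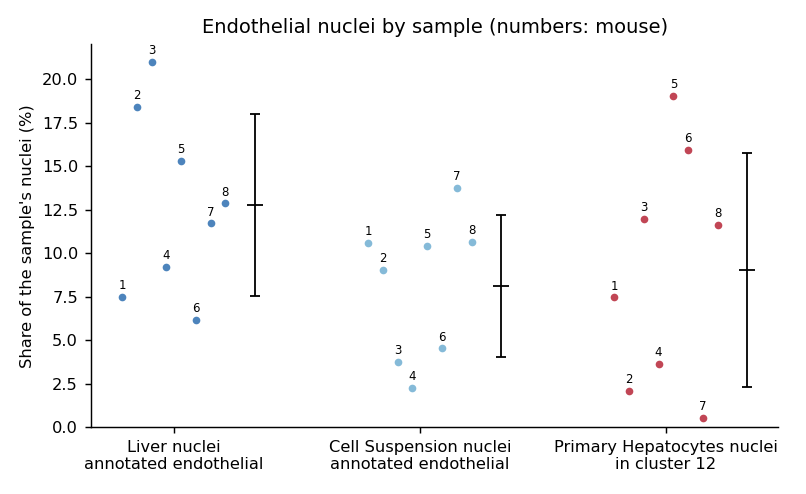
Share of nuclei (percent of each sample's nuclei, vertical axis) that the authors annotated as endothelial in Liver and Cell Suspension and that lie in cluster 12 in Primary Hepatocytes. Each point is a sample numbered by mouse, and the bars give mean ± SD of 8 mice. Cluster 12 spans 0.535% to 19.1%, with mouse 7 lowest and mouse 5 highest.

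Cluster 12 nuclei held fewer UMIs than the hepatocyte nuclei of the same cultures. The median number of UMIs, the unique molecules counted, per nucleus was 867.5 in the lowest sample, 1479 at the median sample and 3589.5 in the highest, and the mean over 8 samples was 1647 ± 865 (SD). Cultured hepatocyte nuclei of the same samples had 6512 ± 1406 UMIs and were higher in 8 of 8 cultures (exact paired permutation test, two-sided, p = 0.00781, adjusted p = 0.0176 over 9 tests, the smallest that 8 pairs allow). Liver endothelial nuclei had 2891 ± 614 UMIs and were higher in 7 of 8 mice, which did not pass the threshold (exact adjusted p = 0.0586), with mouse 7 on the other side, and without mouse 7 the difference passed (exact adjusted p = 0.0234). Against Cell Suspension endothelial nuclei the difference was -134 ± 833 UMIs (SD of the 8 paired differences, exact adjusted p = 0.750), with 4 mice on each side. Summed over its nuclei, cluster 12 held 41532 to 975374 UMIs per culture, so 1 UMI was worth 1.03 to 24.1 CPM (counts scaled to 1000000 UMIs per sample), and values from mouse 7 are the coarsest.

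Spliced RNA took a larger part of the spliced and unspliced UMIs in cluster 12 than in endothelial nuclei that had not been cultured. UMIs of ambiguous splicing state were left out of this share. The spliced share ran from 29.4% to 37.7% over the cultures (mean 33.9% ± 2.90), against 18.5% ± 2.12 in Liver endothelial nuclei and 27.4% ± 4.29 in Cell Suspension endothelial nuclei. Both differences had the same direction in 8 of 8 mice (exact paired permutation, adjusted p = 0.0176 each). Cultured hepatocytes had 30.2% ± 2.23, lower in 7 of 8 cultures (exact adjusted p = 0.0281), a call that was lost when any 1 mouse other than mouse 7 was left out (exact adjusted p = 0.0563). The part of a nucleus's hashtag UMIs that came from its own tag, which says how cleanly a nucleus was placed in its sample, was 31% ± 4.98 in cluster 12 and 45.2% ± 5.82 in cultured hepatocytes, lower in 8 of 8 cultures (exact adjusted p = 0.0176). It was 34.3% ± 13.8 in Liver and 34.8% ± 11.1 in Cell Suspension endothelial nuclei (exact adjusted p = 0.750 and 0.613). Over the cultures the own-tag part of cluster 12 ran from 24.9% (mouse 8) to 38.2% (mouse 1). As 24 tags were spread over 6 pools, an even spread among the tags of a pool lies near the lowest of these values. How far this blurs the counts per mouse was not tested. Of 53128 distinct barcodes in all pools, 337 were kept in 2 or more pools.

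**Figure D2:**
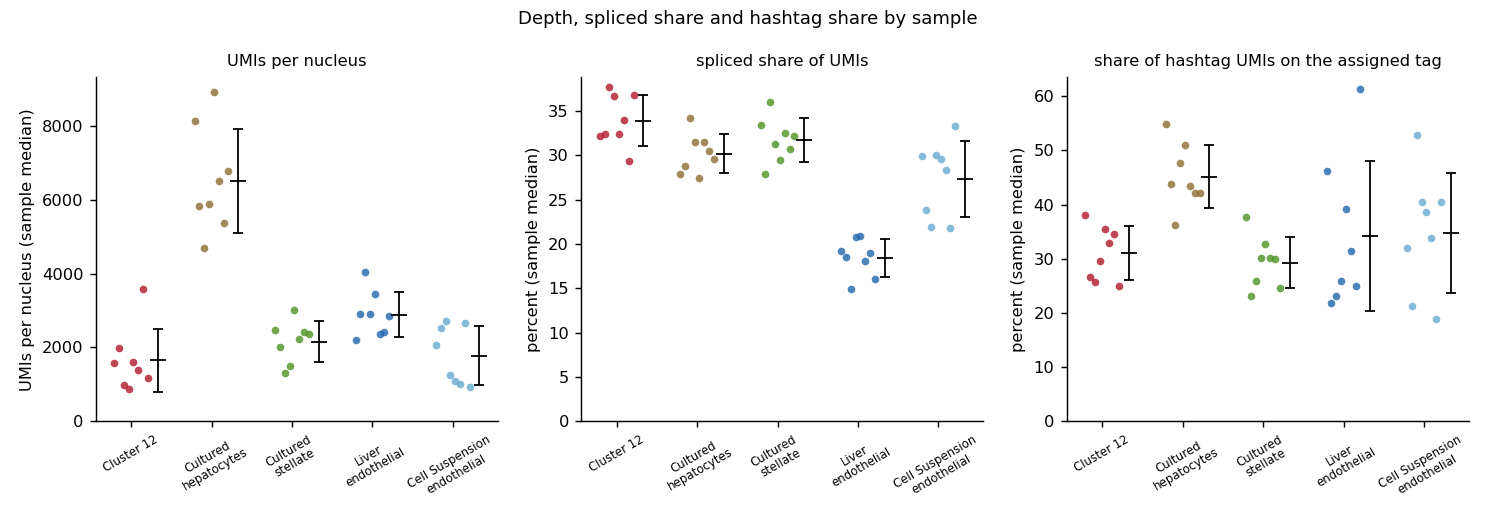
Median per sample of UMIs per nucleus, spliced share of UMIs (percent) and part of the hashtag UMIs from a nucleus's own tag (percent) in cluster 12, cultured hepatocytes, cultured stellate nuclei, and Liver and Cell Suspension endothelial nuclei. The spliced share is taken over spliced and unspliced UMIs, without ambiguous ones. Points are the 8 mice and bars give mean ± SD. Cluster 12 lies at 1647 UMIs against 6512 in cultured hepatocytes, and its spliced share of 33.9% lies above the 18.5% of Liver endothelial nuclei.

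The 7 marker genes were all higher in cluster 12 than in every sample of cultured hepatocytes. Levels are given as CPM of the nuclei summed per sample, as mean ± SD over 8 cultures, and are compared between classes and not between genes, since they are not scaled to gene length. Of the 3903 genes at 50 CPM or more in cluster 12, 652 (16.7%) lay above every hepatocyte sample in the same way, and because the clusters were made from these genes no test was run on them. The summed level of the 7 markers was 6485 ± 994 CPM in cluster 12, 46.8 ± 4.43 in cultured hepatocytes and 1788 ± 433 in cultured stellate nuclei. Adgrf5 had a lowest, median and highest level of 833, 1101 and 1435 CPM in cluster 12, against a mean of 7.15 CPM in hepatocytes and 11.9 CPM in stellate nuclei. Cyyr1 ran at 803, 1036 and 1137 CPM, against 4.70 and 13.8 CPM. Levels of both genes set cluster 12 apart from both other cultured classes in all 8 samples. Both are also endothelial genes in the organ, with means of 1015 CPM (Adgrf5) and 1146 CPM (Cyyr1) in Liver endothelial nuclei.

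Other markers were also found in the cultured stellate nuclei, to different degrees. Arhgap31, a GTPase-activating protein for the small GTPases Cdc42 and Rac1 (chromosome 16, 38598340 to 38713274, minus strand), had 1433 ± 269 CPM in cluster 12, 8.17 CPM in hepatocytes and 487 CPM in stellate nuclei. Plekhg1, a guanine nucleotide exchange factor (chromosome 10, 3740364 to 3967303, plus strand), had 983 ± 224, 13.9 and 94.3 CPM. Prickle2, a planar cell polarity protein (chromosome 6, 92370908 to 92706155, minus strand), had 749 ± 266 CPM in cluster 12 and 546 CPM in stellate nuclei, the smallest gap between these classes among the 7 genes. Adamts9, a secreted metalloproteinase that cleaves proteoglycans (chromosome 6, 92772699 to 92943492, minus strand), had 585 ± 279 and 320.3 CPM. Itgb3, the integrin beta-3 chain that binds matrix together with the alpha-v chain (chromosome 11, 104608000 to 104670476, plus strand), had 640.1 ± 81.8 and 315 CPM. In all, 5 of the 7 markers were at least 2-fold higher in cluster 12 than in stellate nuclei, and Prickle2 and Adamts9 were not. In Liver endothelial nuclei Itgb3, Prickle2 and Adamts9 stood lower, at 29.2, 143 and 55.4 CPM.

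**Figure D3:**
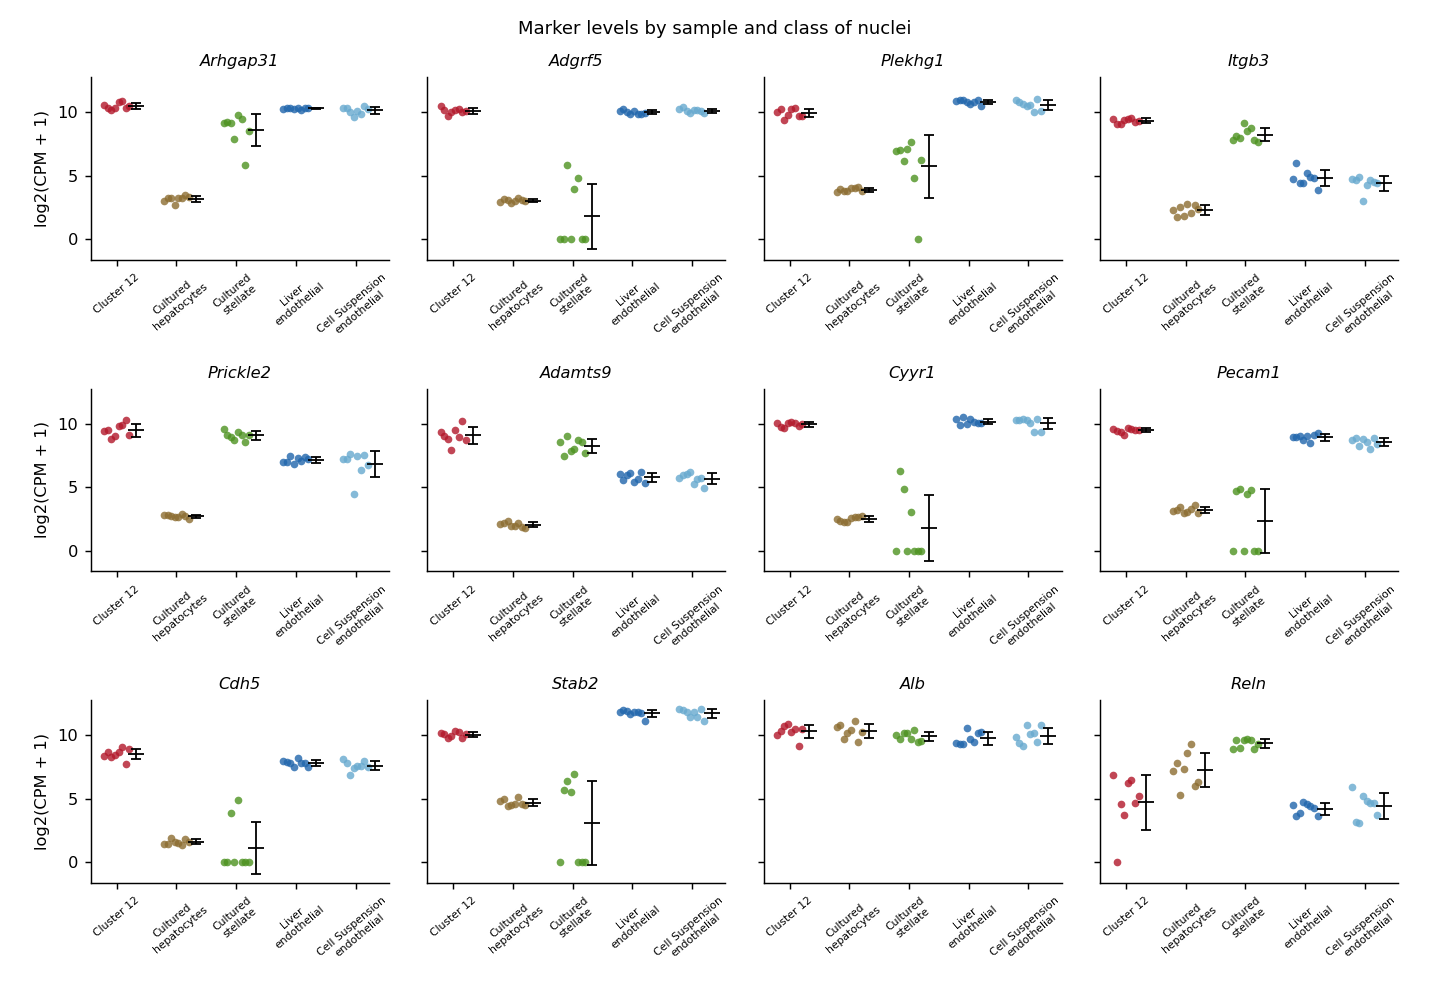
Levels of 12 genes, as log2(CPM + 1) of nuclei summed per sample, in cluster 12, cultured hepatocytes, cultured stellate nuclei and the endothelial nuclei of Liver and Cell Suspension. Points are mice and bars give mean ± SD (n = 8). Adgrf5 and Cyyr1 are high in cluster 12 and in both kinds of endothelial nuclei that were not cultured, whereas Itgb3 is at 640.1 CPM in cluster 12 and 29.2 CPM in Liver endothelial nuclei.

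Pan-endothelial genes were high in cluster 12 as a whole. All 20 genes of a pan-endothelial list, 4 of which are cluster markers, lay above every hepatocyte sample (background 16.7%), and 16 of them were at least 2-fold above stellate nuclei. Of the 20, 12 lay below every sample of Liver endothelial nuclei (background 19.7%). Their sum was 9788 ± 1452 CPM in cluster 12, 159 ± 20.3 CPM in cultured hepatocytes and 2291 ± 543 CPM in cultured stellate nuclei, and it was 21516 ± 1267 CPM in Liver endothelial nuclei. By the ratio of levels, with the nuclei of all cultures pooled, to the higher of hepatocytes and stellate nuclei, the 10 leading genes were Cyyr1, Adgrf5, Npy, Pde2a, Inpp5d, Pecam1, Rasgrp3, Ctla2a, Cdh5 and Kit. Each had only 1 to 7 UMIs in the stellate nuclei, so the order among them was not resolved at this depth. Pecam1, the junction protein CD31, had 709.9 ± 77.6 CPM in cluster 12, 8.31 in hepatocytes and 12.6 in stellate nuclei. Cdh5, the VE-cadherin of endothelial junctions, had 378 ± 97.5 CPM, against 2.07 and 5.24 CPM. Npy, which encodes neuropeptide Y, had 397 ± 169.8 CPM against 1.92 and 3.17 CPM, and its level in Liver endothelial nuclei was 0.226 CPM. The sinusoidal scavenger receptor Stab2 was still present in cluster 12 at 891, 1062 and 1268 CPM (lowest, median and highest), and 44.8 times its hepatocyte level with all cultures pooled. Of 15 sinusoidal genes, 10 lay above every hepatocyte sample and 12 lay below every sample of Liver endothelial nuclei, where 19.7% of 3872 genes at 50 CPM or more did so.

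The markers were also compared as shares of nuclei at equal depth. Up to 400 nuclei per sample and class, drawn at random where there were more, were thinned to 500 UMIs, which every cluster 12 nucleus could supply and which left out 2 Cell Suspension endothelial nuclei. Arhgap31 was then seen in a median of 46.3% of cluster 12 nuclei over the samples (74.2% before thinning) and in 0.50% of cultured hepatocytes (4.56% before thinning). Pecam1 was seen in 28.7% and 0.50%, and Stab2 in 37.0% and 1.25% (62.1% and 13.0% before thinning). Hepatocytes are not known as a source of these endothelial RNAs, and their shares are given as a comparison level, at medians of 1351 and 6419.5 UMIs per nucleus before thinning. Free RNA was not measured. Ptprb, the vascular endothelial phosphatase VE-PTP, was seen in 14% of thinned cluster 12 nuclei and 84.2% of thinned Liver endothelial nuclei, with summed levels of 348 ± 84.7 CPM and 4498 ± 513 CPM. Gata4 was seen in 3.99% and 30.1%, with 81.8 ± 36.5 and 777 ± 114 CPM, and in 1.38% of cultured hepatocytes. Within cluster 12 the nuclei ranged from 510 to 26415 UMIs (median 1351), and the pan-endothelial genes made up 0% to 2.80% of a nucleus's UMIs (median 0.885%).

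Hepatocyte RNA was abundant in cluster 12 as well. The summed level of 11 hepatocyte genes was 3823 ± 1302 CPM (1829.9 to 5766 over the cultures), against 4859.6 ± 1409 CPM in cultured hepatocytes and 2763 ± 907 CPM in cultured stellate nuclei. The same sum was 3702 ± 1062 CPM in Liver endothelial nuclei and 5096 ± 2490 CPM in Cell Suspension endothelial nuclei. A summed level of this size was therefore not particular to cluster 12. By the ratio of means over the cultures, albumin (Alb) stood at 97.6% of its level in cultured hepatocytes, the lipoprotein gene Apob at 58.1%, the urea cycle enzyme gene Cps1 at 54.5% and the hepatocyte transcription factor gene Hnf4a at 29.4%. Genes that were low in cultured hepatocytes were higher in cluster 12, with Cyp2e1, a pericentral cytochrome P450, at 320% and Pck1, the gluconeogenic enzyme gene, at 374% of the hepatocyte level. In cultured stellate nuclei, Alb was at 72.4% and Cyp2e1 at 202%. After thinning, Alb was seen in 50.9% of cluster 12 nuclei and 44.2% of hepatocytes. All 11 hepatocyte genes were above 0 in cluster 12, and the part of free or carried-over RNA in these levels was not tested.

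Markers of the other liver cell types were low. The 11 stellate genes summed to 311 ± 118 CPM in cluster 12 (120.4 to 455), 251 ± 199 in cultured hepatocytes and 3186 ± 328 in cultured stellate nuclei, and the vitamin A enzyme gene Lrat was at 0 in cluster 12. The 9 Kupffer cell genes summed to 29.0 ± 17.1 CPM (0 to 52.1), and 8 leukocyte genes to 22.8 ± 12.3 CPM with Cd3e, Nkg7 and Cd79a at 0. Biliary genes summed to 132 ± 143 CPM with Krt19 and Krt7 at 0, and that sum was highest in the 12 nuclei of mouse 7. Mesothelial genes summed to 16.5 ± 16.2 CPM. In cultured hepatocytes the Kupffer and mesothelial sums were lower, at 14.7 ± 3.69 and 4.37 ± 0.893 CPM. The leukocyte and biliary sums were higher there, at 31.9 ± 5.32 and 191 ± 25.8 CPM. The mesenchymal genes Acta2, Tagln, Vim, Fn1 and others in a list of 12 summed to 1723 ± 279 CPM in cluster 12 and 3245 ± 271 CPM in stellate nuclei. The mesenchymal sum was 1527 ± 184 CPM in cultured hepatocytes and 2798 ± 176 CPM in Liver endothelial nuclei.

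To compare the cultured endothelial nuclei with those of the organ and of the fresh suspension by a test, nuclei of all 24 samples were chosen by one rule that did not use the clusters. A nucleus was taken when at least 5 of its UMIs and at least 1% of them came from the 20 pan-endothelial genes, and these genes were left out of the test. The rule took 711 of the 1733 cluster 12 nuclei (41.0%), 0 of 14760 cultured hepatocytes, 95% of annotated Liver endothelial nuclei and 76.3% of those of Cell Suspension. Of the cluster 12 nuclei, 661 (38.1%) lay between 0.75% and 1.25% and thus near the limit. The cultures gave 765 such nuclei, 20 to 233 per sample, of which 92.9% lay in cluster 12 and 6.14% were annotated endothelial in other clusters. Mouse 7 gave 20 nuclei, of which 6 lay in cluster 12. Counts were summed per sample and tested with edgeR's quasi-likelihood test over 17147 genes, with p-values adjusted by the method of Benjamini and Hochberg. Levels from this comparison are CPM after TMM scaling, and 8 samples stand in each group. A gate of 2% of UMIs, given below as an alternative, kept only the cultures of mice 5 and 6 (12 and 20 nuclei). Genes said to rise or fall passed an adjusted p of 0.05, and where a gene has a pair of log2 fold changes the first is against Liver and the second against Cell Suspension.

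Against Liver, 4538 genes (26.5%) passed in cultured endothelial nuclei, 1757 higher (10.2%) and 2781 lower (16.2%). Against Cell Suspension, 2681 genes (15.6%) passed, 1161 higher (6.77%) and 1520 lower (8.86%). These background shares cover all genes tested, sparse ones included. With edgeR's stricter filter on low counts (filterByExpr), 1419 of 6022 genes were higher and 1465 lower against Liver. Against Cell Suspension 1053 were higher and 1164 lower, so the shares among better covered genes are larger. The cultures lay in pools 2 to 5 only, and pools 1 and 6 held Liver and Cell Suspension alone. Sample type and pool are therefore confounded in part in every fold. With pool as a covariate, many of the folds against Liver of the genes named were smaller by over 1.5 times, as is given with those genes. The 2 comparisons share the 8 culture samples and are given side by side. The median log2 fold change over all genes was -0.17 against Liver and 0 against Cell Suspension. Scaling by median ratios (RLE) moved it by 0.19 and 0.10 and took the higher share of calls against Liver from 38.7% to 54.9%, so the split between higher and lower calls depends on the scaling. Without the culture of mouse 7, which gave 20 nuclei, 4639 and 2810 genes passed. The hepatocyte list held 0 genes called higher and 1 (Cyp2e1) called lower of 11 against Liver, and 0 and 3 against Cell Suspension. Stellate genes held 5 of 10 and Kupffer genes 4 of 8 called lower against Liver, and 1 of 10 and 0 of 8 against Cell Suspension. Of 5 biliary genes, Cftr and Sox9 were called higher and Bicc1 lower against Liver, and Cftr higher against Cell Suspension. Lower against Liver were also 3 of 6 leukocyte and 1 of 3 mesothelial genes, and 0 against Cell Suspension. The part of these cells in the results was not tested.

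Sinusoidal genes fell in the cultured endothelial nuclei. Of 15 tested, 12 fell and 0 rose against Liver (background 16.2% lower), and 13 fell and 0 rose against Cell Suspension (background 8.86% lower), with median log2 fold changes of -2.09 and -2.07. Gata4, the factor that specifies liver endothelium, lay at 76.5 to 324 CPM (median 134) in Primary Hepatocytes, 674 to 1100.2 CPM in Liver and 593 to 1236 CPM in Cell Suspension. All 8 cultures were below all samples of both other groups (log2 fold change -2.63, SE 0.20, adjusted p = 1.89e-14 against Liver, and log2 fold change -2.64, adjusted p = 1.49e-13 against Cell Suspension). The receptor gene Stab2 lay at 1245 to 2521 CPM (median 1465), against 2634 to 4518 CPM in Liver and 2448 to 5201 CPM in Cell Suspension, below every Liver sample and overlapping Cell Suspension (log2 fold change -1.29, SE 0.17, adjusted p = 1.95e-08). The gene for coagulation factor VIII, F8, was at 78.4 to 1146 CPM (median 264) in culture and 1598 to 2669.8 CPM in Liver, again without overlap (log2 fold change -2.69, SE 0.30, adjusted p = 3.63e-10).

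Some receptors for endocytosis fell as well, and others did not pass. Mrc1, the mannose receptor, was at 90.2 to 1227 CPM (median 273) in culture and 960.4 to 1709 CPM in Liver, with the culture of mouse 7 alone inside the Liver range (log2 fold change -2.10, SE 0.29, adjusted p = 1.06e-07). The Fc receptor gene Fcgr2b had a log2 fold change of -2.19 (adjusted p = 1.74e-08) and the C-type lectin gene Clec4g one of -2.64 (adjusted p = 3.47e-07) against Liver. Dnase1l3, which encodes a secreted nuclease, and Bmp2, an endothelial ligand that drives hepcidin in hepatocytes, fell as well, with log2 fold changes of -2.09 (Dnase1l3) and -1.57 (Bmp2) against Liver. Other sinusoidal genes did not pass. Lyve1, the hyaluronan receptor, had log2 fold changes of 0.22 and 0.17 (adjusted p = 0.585 and 0.778, and -0.43 against Liver with pool as a covariate), and the scavenger receptor gene Stab1 had log2 fold changes of -0.31 and -0.35 (adjusted p = 0.13 and 0.149), and Stab1 passed with annotated nuclei in place of the gate (log2 fold changes -0.59 and -0.60). Gated nuclei were also limited to cluster 12 in the cultures and to annotated endothelial nuclei in Liver and Cell Suspension, which leaves out the 47 culture nuclei annotated endothelial in other clusters and drops the culture of mouse 7. With these, 12 and 13 sinusoidal genes were again called lower, with median log2 fold changes of -2.57 and -3.17. The log2 fold changes against Liver then were -5.58 for Clec4g, -4.95 for F8, -4.0 for Mrc1, -3.69 for Fcgr2b, -3.56 for Dnase1l3 and -2.39 for Bmp2.

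Among genes that mark the ends of the sinusoid, the central ligand genes were lower than in Liver. Wnt2, the Wnt ligand of central sinusoidal cells, was at 8.55 to 83.0 CPM (median 32.0) in culture, 59.5 to 222 CPM in Liver and 67.7 to 201 CPM in Cell Suspension (log2 fold change -2.38, SE 0.31, adjusted p = 2.09e-08 against Liver, log2 fold change -2.28 against Cell Suspension). The lowest Liver sample lay within the range of the cultures. Wnt9b, the ligand of central vein cells, was found with 1 count in all gated culture nuclei and 549 counts in those of Liver, a ratio of 0.00878 (95% counting interval 0.000222 to 0.0491) once both are divided by the groups' total counts. Rspo3, which amplifies Wnt signals, had a log2 fold change of -3.07 against Liver (adjusted p = 3.53e-09) and one of -1.01 against Cell Suspension, where it did not pass (adjusted p = 0.0841). It passed there with the mouse as a block, with a gate of 0.5% of UMIs, with annotated nuclei and with no filter on low counts (log2 fold changes -0.95, -1.63, -1.65 and -1.004). Of 6 central genes, 4 fell and 1 (Thbd, thrombomodulin) rose against Liver, and of 5 portal genes, 3 fell (background 16.2% lower), among them Efnb2, the arterial ephrin-B2 (log2 fold changes -1.48 and -1.47). Against Cell Suspension, 3 central and 3 portal genes fell and 0 rose (background 8.86% lower). The receptor tyrosine kinase Kit, one of the 10 leading genes of cluster 12, had log2 fold changes of 0.27 and 0.01 (adjusted p = 0.252 and 0.988), and it was called higher against Liver with RLE scaling (log2 fold change 0.51). With gated culture nuclei limited to cluster 12, the log2 fold changes against Liver were -3.08 for Wnt2 and -2.12 for Efnb2.

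The marker genes that could be tested, since they were not among the 20 genes that chose the nuclei, rose against both groups. Itgb3 was at 310 to 866 CPM (median 518) in culture, 17 to 68.6 CPM in Liver and 7.18 to 48.2 CPM in Cell Suspension (log2 fold change 4.01, SE 0.22, adjusted p = 2.17e-19 against Liver, log2 fold change 4.21 against Cell Suspension). Adamts9 was at 181 to 902 CPM (median 509) in culture, 45.7 to 99.4 CPM in Liver and 35.9 to 87.7 CPM in Cell Suspension (log2 fold change 3.01, SE 0.21, adjusted p = 5.95e-16 against Liver, log2 fold change 3.16 against Cell Suspension). Prickle2 had log2 fold changes of 2.01 and 2.02 (adjusted p = 7.15e-11 and 1.23e-09), and its calls were lost with spliced counts (log2 fold changes 0.87 and 0.72). For all 3, every culture lay above every Liver and every Cell Suspension sample. As the 7 markers were named from these samples, their direction is not independent evidence.

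Of 13 integrin genes, 4 rose and 3 fell against Liver (background 10.2% higher and 16.2% lower), and 3 rose and 3 fell against Cell Suspension (background 6.77% and 8.86%). These counts are near the larger shares with filterByExpr. The rises include the marker Itgb3, whose direction is not independent evidence. The alpha-v chain Itgav, the partner of Itgb3, was at 113 to 392 CPM (median 207) in culture and 45.8 to 83.3 CPM in Liver (log2 fold change 1.86, SE 0.20, adjusted p = 2.81e-10), and Itga3, a laminin receptor chain, had a log2 fold change of 3.93 (adjusted p = 1.25e-16). Those that fell included Itga1, a collagen receptor chain (log2 fold change -2.09, adjusted p = 2.98e-10), and Itga9 (log2 fold change -1.39, adjusted p = 1.42e-09). In gated culture nuclei limited to cluster 12, the log2 fold change of Itga1 against Liver was -3.01, and with pool as a covariate that of Itgav was 1.12. Of 9 matrix proteases and inhibitors tested, 5 rose and 2 fell against Liver, and 4 rose and 1 fell against Cell Suspension, beside the same background shares. Both counts of rises include the marker Adamts9, whose direction is not independent evidence. Plaur, the urokinase receptor, had log2 fold changes of 3.19 and 2.85, and the protease inhibitor gene Timp3 had log2 fold changes of -1.48 and -2.05. Of 11 basement membrane genes, 1 rose (Lamc1, a laminin chain, log2 fold change 1.00) and 2 fell against Liver, and 1 rose and 3 fell against Cell Suspension, whereas RLE scaling gave 3 rises and 1 fall against Liver. The basement membrane counts against Liver are near the background share. Against Liver, Lamc1 lost the call with a gate of 0.5% of UMIs (0.31), with pool as a covariate (0.50), with spliced counts and after thinning, and Hspg2 (perlecan), which had a log2 fold change of -0.64, lost it with RLE scaling, DESeq2, the 2% gate, pool as a covariate, spliced counts and thinning.

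Of 8 VEGF and angiopoietin genes tested, 3 ligand genes (Vegfa, Pgf and Angpt2) rose and 4 receptor genes (Flt4, Nrp1, Nrp2 and Tie1) fell against both groups, and the ligand gene Vegfc fell against Liver (background 10.2% higher and 16.2% lower against Liver, 6.77% and 8.86% against Cell Suspension). With nuclei chosen at 2% of UMIs, which kept only the cultures of mice 5 and 6, Vegfa (1.56 and 1.27), Angpt2 (1.91 and 2.11) and Flt4 (-0.43 and -0.44) lost both calls. With unspliced counts Vegfa lost that against Cell Suspension (0.75). The receptor genes Kdr, Flt1 and Tek were among those that chose the nuclei and were not tested. Pgf, placental growth factor, was at 7.82 to 116 CPM (median 32.8) in culture and at 0 to 0.462 CPM in Liver, where 1 count was found in all, a ratio of 318 (95% counting interval 55.1 to 12751). Angpt2, the antagonist ligand of the Tie2 receptor, had log2 fold changes of 3.18 and 3.03 (adjusted p = 7.59e-11 and 3.06e-07). The co-receptor Nrp1 was at 196 to 863 CPM (median 479) in culture and 1522 to 2118 CPM in Liver (log2 fold change -1.98, SE 0.19, adjusted p = 8.92e-12). In gated culture nuclei limited to cluster 12 its log2 fold change was -2.73. Flt4, the VEGF-C receptor, had a log2 fold change of -0.97 against Liver, and Tie1, an orphan receptor related to Tie2, one of -1.60. Among 7 capillary and angiogenic genes, Esm1, a proteoglycan of endothelial tip cells, rose with log2 fold changes of 5.66 (3.79 with pool as a covariate) and 3.11, together with Apln and Angpt2, and Vwf, von Willebrand factor, fell against Liver (log2 fold change -3.08, adjusted p = 4.96e-10). The log2 fold changes against Liver with pool as a covariate were 5.86 for Pgf, 2.58 for Angpt2 and -2.47 for Vwf. Plvap, the diaphragm protein of capillary fenestrae, also fell against Liver, and neither Vwf nor Plvap passed against Cell Suspension. Vegfa is made by hepatocytes as well, and its level was 177 ± 73.2 CPM in cluster 12 and 268 ± 71.4 CPM in cultured hepatocytes, whose part in the rise was not tested.

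Among 22 transcription factors of endothelium, 10 fell and 2 rose against Liver (background 16.2% lower and 10.2% higher), and 12 fell and 1 rose against Cell Suspension (background 8.86% lower and 6.77% higher). Mef2c, a factor of vascular development, was at 43.1 to 404 CPM (median 133) in culture and 435 to 574 CPM in Liver (log2 fold change -1.98, SE 0.24, adjusted p = 6.87e-09). In gated culture nuclei limited to cluster 12 its log2 fold change was -2.87. Ets1, an ETS factor, had log2 fold changes of -1.23 and -1.37, and Epas1, the hypoxia factor HIF-2 alpha, had log2 fold changes of -1.98 and -2.0. Tcf4, a basic helix-loop-helix factor, rose against both (log2 fold changes 0.76 and 0.96, adjusted p = 4.15e-04 and 3.16e-05), but its call against Liver was lost with pool as a covariate (log2 fold change 0.49, adjusted p = 0.0872). Klf2, the factor induced by flow, had a log2 fold change of 0.61 against Liver (adjusted p = 0.153) and one of -2.14 against Cell Suspension (adjusted p = 1.32e-07), and with edgeR's filterByExpr it was called higher against Liver (log2 fold change 0.83, adjusted p = 0.0461). With pool as a covariate its log2 fold changes were -0.27 against Liver and -2.77 against Cell Suspension. The inhibitory Smads Smad6 and Smad7, induced by BMP and TGF-beta signals, fell, with log2 fold changes of -2.02 and -1.13 against Liver and -1.93 and -1.30 against Cell Suspension. Of 7 Notch pathway genes tested, 1 rose and 2 fell in each comparison, beside the same background shares. The receptor gene Notch1 fell with log2 fold changes of -1.63 and -1.39, and the ligand gene Jag1 with -1.95 and -1.14. Notch4, an endothelial Notch receptor, rose with log2 fold changes of 1.01 and 0.80, and with pool as a covariate both calls were lost (0.48 and 0.48, adjusted p = 0.389 and 0.325), as was that against Cell Suspension with the mouse block (0.73, adjusted p = 0.0598).

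Genes of glycolysis rose almost throughout. Of 17 genes, 15 rose and 0 fell against Liver (background 10.2% higher), and 16 rose and 0 fell against Cell Suspension (background 6.77% higher), with median log2 fold changes of 2.95 and 2.22. Pkm, the pyruvate kinase of most tissues other than liver, was at 256 to 586 CPM (median 352) in culture, 34.0 to 60.5 CPM in Liver and 25.4 to 117 CPM in Cell Suspension (log2 fold change 3.20, SE 0.19, adjusted p = 1.08e-18 against Liver, log2 fold change 2.60 against Cell Suspension). Slc2a1, the glucose transporter GLUT1, was at 66.4 to 159.9 CPM (median 124) in culture, 0 to 9.52 CPM in Liver and 0 to 19.3 CPM in Cell Suspension (log2 fold change 4.91, SE 0.31, adjusted p = 2.43e-17 against Liver, log2 fold change 4.08 against Cell Suspension). Both genes were higher in every culture than in any sample of the other groups. The log2 fold changes were 4.07 and 3.87 for the hexokinase gene Hk2, 1.22 and 1.19 for its relative Hk1, and 2.51 and 1.5 for the lactate dehydrogenase gene Ldha, whose calls were lost with unspliced counts (log2 fold changes 0.66 and 0.10, adjusted p = 0.29 and 0.954). The lactate exporter gene Slc16a3 had log2 fold changes of 4.64 and 4.70. Against Liver, Pkm had a log2 fold change of 2.56 and Slc16a3 one of 3.75 with pool as a covariate. In the whole cluster, 14 of the 17 genes lay above every sample of Liver endothelial nuclei, against 15% of all genes at 50 CPM or more in cluster 12. Cultured hepatocytes also carried these RNAs. Their glycolysis sum was 1715 ± 229 CPM against 2559.8 ± 198 CPM in cluster 12 and 2644 ± 272 CPM in stellate nuclei, with Pkm at 302 ± 50.3 and 505 ± 37.6 CPM in hepatocytes and cluster 12, and 4 of 17 genes lay above every hepatocyte sample, against 16.7% of all genes. The part of hepatocyte RNA in the rise was not tested.

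Of 10 antioxidant genes, 7 rose and 0 fell against Liver (background 10.2% higher), and 4 rose, 6 did not pass and 0 fell against Cell Suspension (background 6.77% higher). Gclc, the catalytic subunit of the first enzyme of glutathione synthesis, was at 189 to 1090.1 CPM (median 706) in culture, 52.9 to 199.8 CPM in Liver and 61.6 to 463 CPM in Cell Suspension (log2 fold change 2.77, SE 0.29, adjusted p = 9.16e-11 against Liver, log2 fold change 1.68 against Cell Suspension). Txnrd1, thioredoxin reductase, had log2 fold changes of 1.24 and 0.84, and Hmox1, heme oxygenase, had log2 fold changes of 3.0 and 1.55. With pool as a covariate those against Liver were 1.53 for Gclc and 1.56 for Hmox1. In the whole cluster, Gclc was at 1097 ± 466 CPM and in cultured hepatocytes at 3271 ± 801 CPM, and 6 of the 10 genes lay below every hepatocyte sample, as did 24.2% of 4091 genes at 50 CPM or more in hepatocytes. Lipc, the hepatic lipase, was at 40.4 to 418 CPM (median 215) in gated culture nuclei, 21.2 to 94.6 CPM in Liver and 50.8 to 193 CPM in Cell Suspension (log2 fold change 1.95, SE 0.26, adjusted p = 4.28e-08 against Liver, log2 fold change 1.01 against Cell Suspension). The call of Lipc against Cell Suspension was lost with gated culture nuclei limited to cluster 12 (log2 fold change 0.67, adjusted p = 0.0806), with a gate of 2% (0.44), with spliced counts (0.56) and after thinning (0.24), and the call against Liver was lost with a gate of 2% (1.12) and with spliced counts (0.56). Its level in all of cluster 12 was 339 ± 138 CPM, or 20.7% of the 1639 ± 218 CPM in cultured hepatocytes (17.2% with the nuclei of all cultures pooled). The corresponding percentages were 29.4% for Hnf4a and 58.1% for Apob, and the part of hepatocyte RNA in the levels of Gclc and Lipc was not tested. Fabp4, a fatty acid carrier of capillary endothelium, rose with log2 fold changes of 2.54 and 2.49, and its level was 475 CPM in cluster 12 and 5.34 CPM in hepatocytes. Gpihbp1, which anchors lipoprotein lipase on capillaries, fell with log2 fold changes of -1.87 and -2.01. In gated culture nuclei limited to cluster 12, Gpihbp1 had -3.04 against Liver, and with pool as a covariate Fabp4 had 1.82.

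Among 12 inflammatory genes tested, 8 rose (background 10.2%) and 1 fell against Liver and 6 rose (background 6.77%) and 2 fell against Cell Suspension. Nfkbia, the inhibitor that NF-kB induces against itself, was at 90.3 to 324 CPM (median 239) in culture and 12.9 to 35.5 CPM in Liver (log2 fold change 3.40, SE 0.24, adjusted p = 8.02e-16), and its log2 fold change against Cell Suspension was 1.63. The neutrophil chemokine gene Cxcl2 was at 0 to 165 CPM (median 71.6) in culture, and 3 counts were found in all Liver samples, a ratio of 279.5 (95% counting interval 94.1 to 1369). Ccl2, a monocyte chemokine, had log2 fold changes of 6.09 and 4.14. With pool as a covariate the former was 3.74 and that of Nfkbia against Liver 2.40, and with the 2% gate the call of Ccl2 against Cell Suspension was lost (2.65, adjusted p = 0.318). The adhesion molecule gene Icam1 fell against Liver (log2 fold change -1.44, adjusted p = 0.00174), and thinning to equal UMIs gave a log2 fold change of 0.03. In all of cluster 12, Cxcl2 had 116 ± 88.7 CPM and cultured hepatocytes 25.0 ± 19.1 CPM, and Nfkbia had 251 ± 74.7 and 54.9 ± 20 CPM.

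Early response genes stood above Liver and mostly below the fresh suspension. Against Liver 10 of 10 rose (background 10.2%), whereas against Cell Suspension 2 rose and 8 fell (background 6.77% and 8.86%). Jun was at 125 to 337 CPM (median 206) in culture, 17 to 40.2 CPM in Liver and 398 to 1387 CPM in Cell Suspension, so the 3 groups did not overlap (log2 fold change 2.78, SE 0.24, adjusted p = 3.57e-13 against Liver and log2 fold change -1.85, adjusted p = 2.86e-09, against Cell Suspension). The log2 fold changes of Egr1, a growth factor response gene, were 2.61 and -1.39. Those of Fos, the partner of Jun in AP-1, were 2.38 and -2.86, and the call of Fos against Liver was lost (log2 fold change 0.90) when gated culture nuclei were limited to cluster 12, and also with unspliced counts (log2 fold change 1.05) and a gate of 2% (0.32). The 2 genes above the suspension were Ier3 (log2 fold change 2.68, adjusted p = 1.62e-10) and Klf6 (log2 fold change 0.74, adjusted p = 0.0488). The call on Klf6 was lost when all 3 samples of mouse 2, 4, 6, 7 or 8 were left out and with pool as a covariate (log2 fold change 0.31), and unspliced counts alone gave a log2 fold change of -0.33. Cultured hepatocytes had an early response sum of 1924 ± 202 CPM and cluster 12 one of 1109 ± 122 CPM. Of 19 cell cycle genes, 2 rose and 4 fell against Liver and 1 rose and 3 fell against Cell Suspension, and RLE scaling turned the first into 3 rises and 1 fall. The rises are near the background of 10.2% and 6.77%, and no change of the list is read from them.

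**Figure D4:**
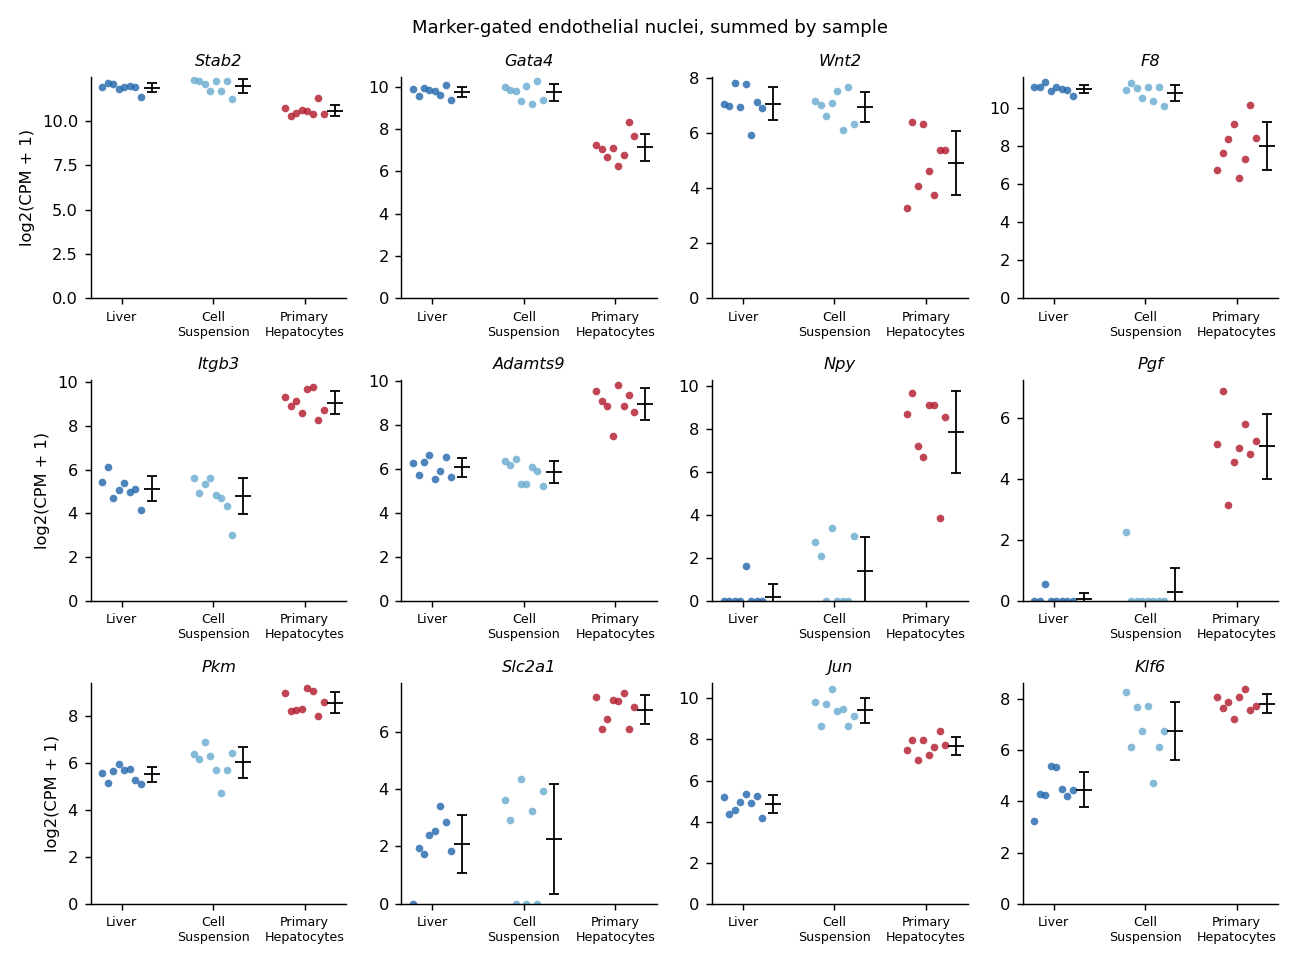
Levels of 12 genes, as log2(CPM + 1), in endothelial nuclei chosen by the 20 pan-endothelial genes and summed per sample of Liver, Cell Suspension and Primary Hepatocytes. Points are the 8 mice and bars give mean ± SD. Gata4 is lower in all 8 cultures than in any other sample, Itgb3, Pkm and Slc2a1 are higher, and Jun is highest in Cell Suspension.

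Among the 17147 genes tested, 165 rose and 532 fell in the cultures against both groups with a mean of at least 50 CPM in the higher group and without overlap with Liver. Only genes with a unique symbol were counted. The split of calls depends on the scaling, and overlap was judged at unequal depth. No excess of falls is read from these counts. The 10 largest rises from Liver were Npy, Gprc5b, Mt2, Odc1, Rgs2, Slc2a1, Muc19, Ier3, Xylt1 and Slc16a3. Npy was at 13.5 to 813 CPM (median 394) in culture and at 0 to 2.05 CPM in Liver, with 3 counts in all Liver samples and a ratio of 1239 (95% counting interval 422 to 6019). The lowest culture for Npy was that of mouse 7. Gprc5b, an orphan G protein-coupled receptor, had log2 fold changes of 5.6 and 4.74 against Liver and Cell Suspension, and Xylt1, which starts the sugar chains of proteoglycans, had log2 fold changes of 4.65 and 4.93. In all of cluster 12, these 3 genes had 397, 68.9 and 524 CPM, and in cultured hepatocytes 1.92, 0.920 and 4.26 CPM. Cultured stellate nuclei had 3.17, 126 and 63.2 CPM, so Gprc5b was higher there than in cluster 12. Mt2 and Slc16a3 were also higher in stellate nuclei (367 and 104 CPM) than in cluster 12 (236 and 77.4 CPM). Odc1, the first enzyme of polyamine synthesis, had log2 fold changes of 5.04 and 2.71, and Rgs2, a regulator of G protein signalling, had log2 fold changes of 4.94 and 4.60. Mt2, a metallothionein, had log2 fold changes of 5.13 and 2.29. With pool as a covariate those of Mt2 were 2.81 and 1.56, and those against Liver were 7.01 for Npy, 4.21 for Odc1, 3.75 for Slc16a3 and 4.30 for Slc2a1. The level of Mt2 was 236 CPM in cluster 12 and 213 CPM in cultured hepatocytes, and that of Slc2a1 was 128 and 103 CPM, and the part of hepatocyte RNA in these rises was not tested. Muc19, a gel-forming mucin gene, had a log2 fold change of 4.86 against Liver.

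The 10 largest falls were in Wnt9b, Plppr5, Egfem1, Rbms3, Nuak1, Tmem44, Fign, Pknox2, Gulp1 and Cd300lg. Rbms3, an RNA-binding protein, was at 36.9 to 111 CPM (median 61.4) in culture, 776 to 1755 CPM in Liver and 58.5 to 488 CPM in Cell Suspension (log2 fold change -3.90, SE 0.30, adjusted p = 1.5e-14 against Liver). Rbms3 is not particular to endothelial nuclei, as its mean was 3286 CPM in cultured stellate nuclei. That mean was 59.2 CPM in all of cluster 12 and 804 CPM in annotated Liver endothelial nuclei. The part of stellate RNA in the fall of Rbms3 was not tested. Plppr5, a lipid phosphatase-related membrane protein, had 7 counts in the cultures and 672 in Liver, with log2 fold changes of -4.31 and -3.19. Gulp1, an adaptor for the engulfment of apoptotic cells that works with stabilin receptors, was at 0 to 40.4 CPM (median 10.3) in culture and 61.5 to 141 CPM in Liver (log2 fold change -3.48, SE 0.34, adjusted p = 1.21e-11). The log2 fold change of Gulp1 against Cell Suspension was -2.58. With spliced counts alone both calls were lost, with log2 fold changes of -0.50 against Liver (adjusted p = 0.713) and 0.036 against Cell Suspension. Cd300lg, a receptor of capillary endothelium that binds L-selectin, had log2 fold changes of -3.43 and -3.36, and its highest culture, mouse 4, was at 79.1 CPM. Fign, a microtubule-severing protein, Pknox2, a homeobox factor, and Nuak1, a kinase of the AMPK family, had log2 fold changes of -3.70, -3.62 and -3.88 against Liver. Nuak1 had -3.04 and Plppr5 -3.01 with pool as a covariate. With gated culture nuclei limited to cluster 12, the log2 fold changes against Liver were -5.04 for Cd300lg, -5.28 for Fign and -5.64 for Plppr5, and with annotated nuclei and no gate they were -3.75, -3.33 and -4.40.

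**Figure D5:**
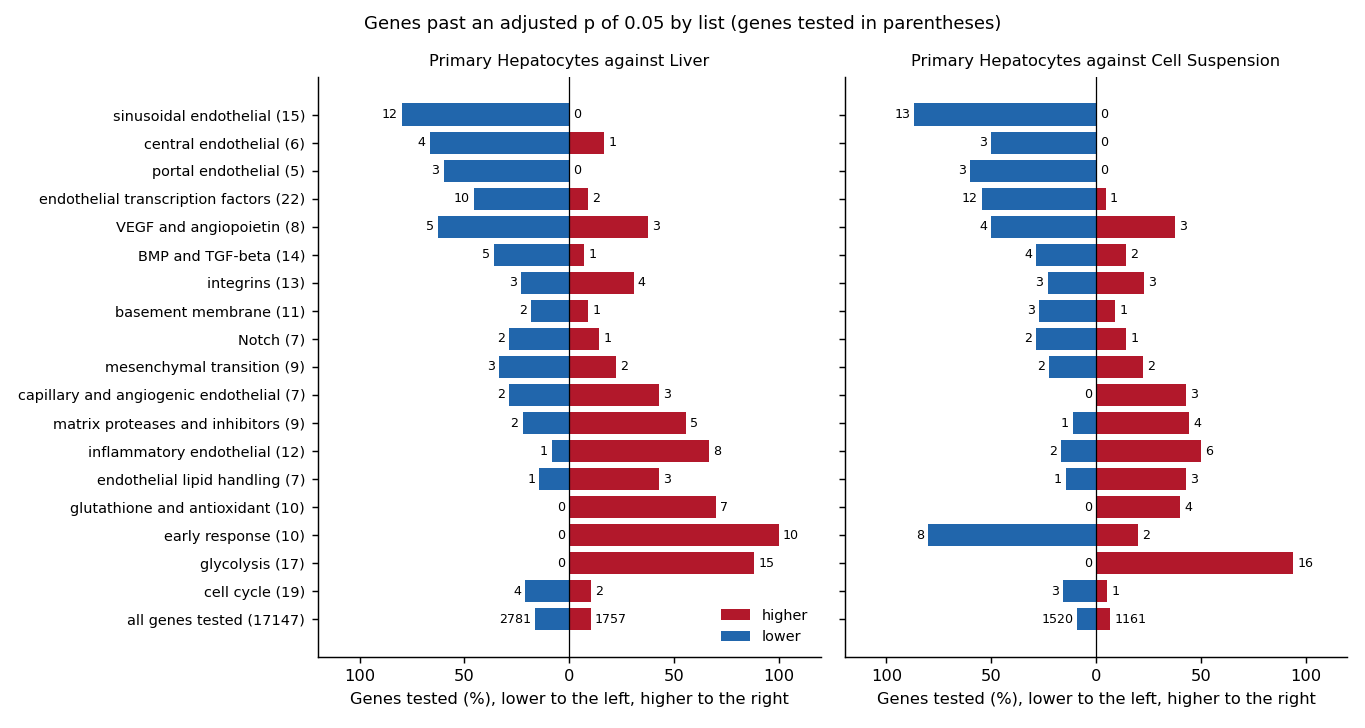
Percent of the tested genes of each list that were called higher or lower in gated endothelial nuclei of Primary Hepatocytes, against Liver and against Cell Suspension, with the number of genes at the end of each bar. Glycolysis has 15 and 16 of 17 genes higher, sinusoidal genes 12 and 13 of 15 lower, and early response genes turn from 10 of 10 higher against Liver to 8 of 10 lower against Cell Suspension.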

How the data were processed

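Nuclei of 24 hashtagged samples were sequenced in 6 pools. Reads were converted with bcl2fastq 2.19.0 and pseudo-aligned by the authors to spliced and unspliced transcripts of GRCm38, using Salmon, Alevin and Alevin-fry. They deposited raw UMI counts per barcode, gene and splicing state, and hashtag counts. The authors assigned hashtags by mixture models, removed doublets (between samples by hashtag, within samples with scDblFinder), normalised with SCTransform and clustered in Seurat. The deposited table of kept nuclei gives pool, hashtag, sample type, cell type and cluster, and no further filter or doublet caller was applied here. The hashtag written CD2 was read as the Cell Suspension of mouse 2.

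The 3 splicing states were summed per gene, and 32158 of 32285 genes had a symbol. For the tests between sample types, counts of gated nuclei (48259 to 2350736 UMIs per sample) were summed per sample, genes whose total over the samples reached 10 counts were kept, and edgeR 4.0.16 (R 4.3.3, limma 3.58.1) was fitted to 24 samples with TMM scaling and Benjamini-Hochberg adjustment at 0.05. Medians per sample were compared by exact paired permutation tests in scipy 1.17.1 under Python 3.11.15 with numpy 2.4.6, pandas 2.3.3 and matplotlib 3.10.9. Sample types are paired by mouse because they come from one liver, and the same-mouse correlation of deviations over 3867 genes was -0.188 to 0.106 between Liver and Primary Hepatocytes and -0.0898 to 0.156 between Cell Suspension and Primary Hepatocytes. The mouse enters as a block only as an alternative.

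On simulated counts for Primary Hepatocytes against Liver, with 16490 genes of which 200 were changed, 90% of the 2-fold and 100% of the 4-fold changes were recovered with 19 false calls. Against Cell Suspension it was 80% and 100% with 7. The changed genes were drawn only from those with a mean of at least 50 CPM, and no mouse or pool effect was simulated. Recovery among sparser genes and false calls under such effects were therefore not measured. Ratios with 3 counts or fewer in a group carry exact intervals, which cover counting error only.

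The members of the cluster and the gene lists were chosen with earlier results of these data known. Genes named were members of those lists, genes that the study names (Pkm, Gclc, Lipc, Gata4, Ptprb and Stab2), the 10 with the largest ratio to the other cultured classes, and the 10 largest rises and falls past the threshold in both comparisons with at least 50 CPM in the higher group and no overlap with Liver. Alternatives covered the gate, choice of nuclei, scaling, filters, splicing state, depth, pool, mouse and DESeq2 1.42.0.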

Additional observations from a re-analysis of the deposited data

Results flagged for a closer look

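Over the 8 cultures, 16 of 148 values checked had 1 sample far from the others by Dixon's ratio at the 95% level, which chance gives in about 1 of 20 groups. In mouse 7, whose cluster 12 held 12 nuclei and where 1 UMI is 24.1 CPM, 9 values stood apart. Its median UMIs per nucleus were 3589.5 (next 1994.5). The antioxidant list summed to 3323 CPM (next 2047) and the biliary list to 482 CPM (next 117). Vegfa was at 337 CPM (next 199), Txnrd1 at 457 CPM (next 211), Fos at 48.2 CPM (next 24.6) and Zeb2, a zinc finger factor of mesenchymal change, at 457 CPM (next 323). At the low end, F8 was at 0 CPM (next 48.8) and Stab1 at 96.3 CPM (next 268) in that culture.

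In mouse 2, Gata4 reached 167 CPM (next 83.3), Notch1 93.8 CPM (next 41.0) and the early response list 1366 CPM (next 1167), while Hk2 was lowest at 10.4 CPM (next 48.2). In mouse 4, where 1 UMI of the cluster is 12.2 CPM, Wnt9b was at 24.4 CPM in cluster 12 (next 2.93), and Cd300lg was at 79.1 CPM in gated nuclei (next 26.96). In mouse 6, the VEGF receptor gene Kdr was at 67.9 CPM (next 43.7).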

How the results depend on the processing

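Among 4406 comparisons of a named gene under another setting, 4206 were counted as unchanged, 178 lost the call, 11 gained it and 11 reversed a call. A gene that had not passed and changed sign was counted as unchanged. With pool as a covariate, Lyve1 (-0.43) and Klf2 (-0.27) changed sign in this way against Liver. The count of genes called against Liver, 4538 of 17147 tested, was 2884 of 6022 with edgeR's filterByExpr and 2267 of 17147 with pool as a covariate. It was 959 of 14782 with a gate of 2% of UMIs, 2732 of 11990 with spliced counts and 1371 of 9730 after thinning to equal UMIs. Against Cell Suspension, 2681 of 17147 genes became 687 of 14782 with the 2% gate, 1087 of 11990 with spliced counts and 1037 of 9730 after thinning. Without each mouse in turn the counts ran from 3774 to 4444 and from 1980 to 2626. Leaving out the cultures of mice 2 and 7, a choice made after seeing the data, gave 4438 and 2731 genes. DESeq2 called 4082 and 2727. The higher share of calls against Liver (38.7%) was 56.7% with DESeq2, 52.8% after thinning, 49.2% with filterByExpr and 28.5% with spliced counts. Against Cell Suspension (43.3%) it was 52.7% with RLE scaling, 50.9% with DESeq2 and 51.7% with gated nuclei that were also annotated. In that comparison it was 37.2% with pool as a covariate and 32.5% with the 2% gate. With the mouse as a replicate block, 4047 and 2384 genes were called, 3929 and 2295 of them shared with the fit without it, and among named genes Selp against Liver and Notch4 against Cell Suspension lost the call, Rspo3 against Cell Suspension gained it, and no other call of a named gene changed. The 2% gate changed the most calls of named genes, with 49 lost and 3 reversed. It kept only the cultures of mice 5 and 6, with 12 and 20 nuclei, so its lost calls rest on few cultures. Among genes that had passed, the reversed log2 fold changes against Liver were Txnrd1 -0.37 and Selp -0.38 (2% gate), Icam1 0.034 and Pde2a 0.015 (thinned), and Mmp14 -1.13 and Mki67 -0.24 (spliced). Against Cell Suspension they were Txnrd1 -0.63 (2% gate), Icam1 0.43, Mmp14 -0.40 and Gulp1 0.036 (spliced) and Klf6 -0.33 (unspliced). Calls were lost with unspliced counts for Clec4g, Egr1 and Gpihbp1 in both comparisons, with pool as a covariate for Icam1 in both, for Lamc1 against Liver and for Hmox1 against Cell Suspension, and after thinning for Txnrd1 in both, for Tie1, Notch1 and Timp3 against Liver and for Hk1 against Cell Suspension. The difference in UMIs per nucleus from Liver endothelial nuclei, -1244, passed the threshold with means over nuclei (-1456), with nuclei of at least 1000 UMIs (-1207) and with no replicate block (-1244), and ran from -1588 to -983 without 1 mouse, passing without mouse 7. That from Cell Suspension ran from -286 to 94.6, turning without mouse 3. The spliced share above cultured hepatocytes, 3.75 percentage points, missed the threshold at 2.07 with ambiguous counts taken as spliced and ran from 3.26 to 4.44 without 1 mouse. The own-tag share against Liver ran from -5.11 to 1.48 percentage points, turning without mouse 8. The correlation with the suspension share ran from -0.478 to 0.145, and that with the Liver share from -0.143 to 0.279, or -0.0452 per hepatocyte nucleus and -0.218 with gated nuclei. The 7-marker sum of 6485 CPM was 8798 with unspliced counts and 9592 in nuclei with over 1% of UMIs from the gate genes. Some of the 7 markers are themselves gate genes, so the choice of nuclei raises the latter sum by construction. The cause of the other changes was not tested. Depth limits the cultures of mice 7, 2 and 4 most, with 12, 42 and 76 nuclei in the cluster, where 1 UMI is worth over 10 CPM and low genes were not detectable.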
